A study of Mus musculus with 6 samples.

Results

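The genes examined were 41 receptors, peptides and enzymes through which hormones, nerves and local mediators set the tone of blood vessels. They were taken by symbol from the 49548 genes of the deposited expression table, in which each symbol had 1 row. Of the 41 genes, 37 were detected, with a total of 1 normalized count or more, and were tested among the 26402 genes that passed this filter. Adra2c, Agtr2, Htr2a and Tacr2 had no count in any library, which at a floor of 3 counts per library does not show that they were absent.

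The libraries came from colonic adenomas of C57/BL6 mice that carried Col6a1-cre and the Rosa26-mTmG reporter and had received azoxymethane (AOM), a carcinogen, and dextran sodium sulfate (DSS), which causes colitis. In this reporter, Cre recombination replaces membrane Tomato with GFP in a cell and its descendants, so GFP+ cells are here called Col6a1+ cancer-associated fibroblasts (CAFs) and Tomato+ cells Col6a1− CAFs. Both groups came from the same genotype and treatment, and were sorted after exclusion of cells with CD45, EpCAM, CD31 or Ter119, the markers of immune, epithelial, endothelial and erythroid cells. Each group had 3 libraries, each from a pool of tumors of several mice, and 3′ mRNA sequencing read the ends of polyadenylated transcripts. According to the study, Col6a1-cre is active in perivascular cells as well as in a fibroblast subset, so the Col6a1+ group is not a single cell type.

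Vessel tone is set by smooth muscle cells and pericytes, the mural cells that wrap around vessels. Receptors that couple to Gq raise calcium inside the cell and favour contraction, those that couple to Gs raise cyclic AMP and favour relaxation, and those that couple to Gi lower cyclic AMP. Angiotensin, noradrenaline, vasopressin and thrombin act on several such receptors, and fibroblasts, nerves and epithelial cells use many of the same ones.

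Library totals, as normalized counts, ran from 3172312 to 3425249 in Col6a1+ CAFs and from 3039152 to 3282417 in Col6a1− CAFs. Replicate 1 of the Col6a1+ CAFs stood apart, with 14530 genes detected against 18770 to 20511 in the other libraries. It also had a count for only 19 of the 41 genes, against 25 to 33, and 11 of them were at 0 there while both other Col6a1+ libraries had counts. Col6a1 was higher in Col6a1+ CAFs by 2.82 on the log2 scale (SE 0.44, limma adjusted p = 0.00613). The 12 mural markers summed to between 53484 and 107673 normalized counts in Col6a1+ CAFs and to between 1584 and 4231 in Col6a1− CAFs, and all 12 were called higher. The 12 epithelial markers summed to between 5913 and 6715 in Col6a1+ CAFs and to between 20145 and 33369 in Col6a1− CAFs, although the sort removed EpCAM+ cells. In bulk samples such as these, fewer cells of a type and less RNA per cell cannot be told apart.

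In the fit by group alone, 5 vasoactive receptors were called higher in Col6a1+ CAFs, and none of the 37 tested genes was called lower. The 5 were those for thrombin (F2r), noradrenaline (Adra2a), vasopressin (Avpr1a), UDP-glucose (P2ry14) and adenosine (Adora2a). Across all genes tested, 703 of 26402 (2.66%) were called higher in Col6a1+ CAFs and 517 (1.96%) lower, by limma at an adjusted p under 0.05. At an unadjusted p under 0.05, 13 of the 37 were higher and 2 lower, against 1751 and 2483 of all genes. The 3 Col6a1+ libraries lay above the 3 Col6a1− libraries for 12 of the 37, where 7.91% of all genes did so, and below them for 2, where 11.6% did. The median log2 fold change (Col6a1+ minus Col6a1−) was 1.02 for the 37 genes and -0.27 for all genes, with 24 of the 37 above 0 and 13 below. Summed over the 41 genes, the normalized counts were between 2749 and 4061 in Col6a1+ CAFs and between 973 and 1404 in Col6a1− CAFs.

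The 5 calls depended on the number of libraries and on the treatment of replicate numbers. With the replicate number as a block, none of the 26402 genes was called, and the lowest adjusted p among the 37 was 0.0612. When the block was fitted to the 13515 genes whose mean reached 10 normalized counts, a setting chosen after the data were seen, 7 of the 20 that remained were called higher and 1 lower. Of all genes in that fit, 7.26% were called higher and 6.44% lower. Leaving out replicate 1 of the Col6a1+ CAFs kept Adora2a and Adra2a and added Ramp3 as 1 lower. Leaving out replicate 2 kept Adora2a and added Adra1b, and leaving out replicate 3 kept Adra2a and F2r. Leaving out any 1 of the 3 Col6a1− libraries left 0 called in either direction. Few genes of any kind were called there, with 11, 180 and 102 higher and 1, 52 and 14 lower, of 25839, 25362 and 25299 tested. The 3 fits without a Col6a1+ library called 453, 292 and 179 of all genes higher and 442, 218 and 149 lower, of 26150, 25472 and 25810. The direction of the 5 did not turn in any of these fits.

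**Figure D1:**
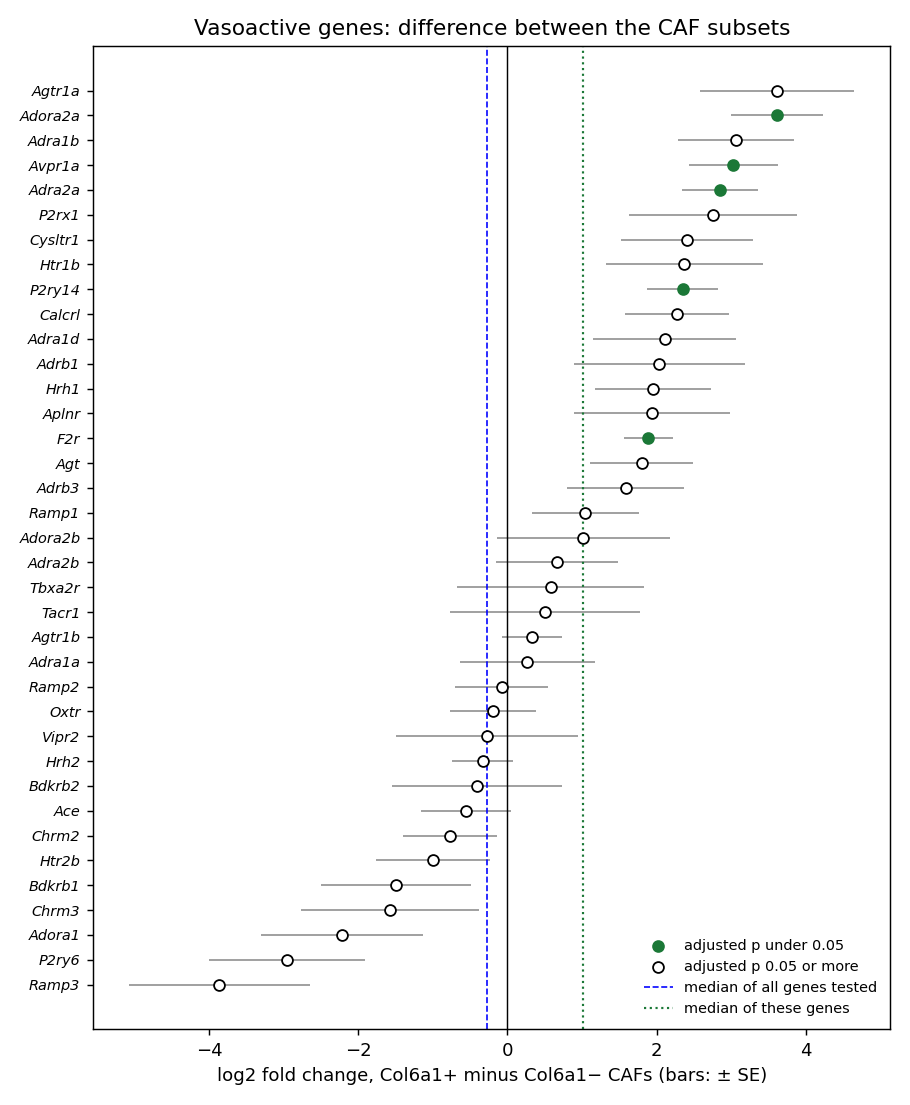
Log2 fold change (x axis, Col6a1+ minus Col6a1− CAFs) of the 37 tested genes, with bars of 1 SE, filled where the adjusted p was under 0.05. The dotted line marks the median of these genes (1.02) and the dashed line that of all genes tested (-0.27).

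The promoters of the called receptors are shown here because these genes were called in the same direction. RefSeq (GRCm38.p6) gave 300 bases, from 250 before to 50 after a start site, for 4 of the 5, and for 31 of the 41 genes. Each is written 5′ to 3′ on the gene's strand, and capitals mark TTCCCA, the reverse complement of TGGGAA, the core of the RBPJ motif through which Notch signals act.
F2r, chr13:95618417-95618716, minus strand: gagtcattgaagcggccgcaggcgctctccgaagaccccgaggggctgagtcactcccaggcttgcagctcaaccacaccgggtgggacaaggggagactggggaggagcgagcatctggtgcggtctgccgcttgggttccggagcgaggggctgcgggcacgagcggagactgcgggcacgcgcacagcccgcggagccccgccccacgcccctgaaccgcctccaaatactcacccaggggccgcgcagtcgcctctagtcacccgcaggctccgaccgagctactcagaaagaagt
Adra2a, chr19:54045009-54045308, plus strand: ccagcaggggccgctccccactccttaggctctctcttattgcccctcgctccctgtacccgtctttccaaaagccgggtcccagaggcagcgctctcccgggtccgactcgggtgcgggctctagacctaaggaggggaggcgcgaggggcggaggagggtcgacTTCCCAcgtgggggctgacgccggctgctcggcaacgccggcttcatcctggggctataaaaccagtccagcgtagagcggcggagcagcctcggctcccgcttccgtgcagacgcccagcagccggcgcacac
Avpr1a, chr10:122448249-122448548, plus strand: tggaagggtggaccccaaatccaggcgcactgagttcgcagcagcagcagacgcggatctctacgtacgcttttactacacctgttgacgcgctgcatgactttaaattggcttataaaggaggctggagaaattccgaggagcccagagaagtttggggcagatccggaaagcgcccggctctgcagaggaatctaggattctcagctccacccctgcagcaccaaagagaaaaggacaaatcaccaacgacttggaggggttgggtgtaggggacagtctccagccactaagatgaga
P2ry14, chr3:59153443-59153742, minus strand, 1 of 4 start sites in RefSeq: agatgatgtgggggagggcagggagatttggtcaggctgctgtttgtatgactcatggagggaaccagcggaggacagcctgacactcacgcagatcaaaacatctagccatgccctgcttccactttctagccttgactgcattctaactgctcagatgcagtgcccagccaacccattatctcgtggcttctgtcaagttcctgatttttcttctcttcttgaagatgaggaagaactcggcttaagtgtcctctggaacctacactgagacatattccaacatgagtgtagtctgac
TGGGAA was searched on both strands and was found once in these windows, beginning 84 bases before the start site of Adra2a on the reverse strand. Over all start sites, 25.6% of 32851 promoters held it. At least 1 promoter held it in 28.3% of all 27025 genes and in 11 of the 31, P2ry14 at another of its start sites among them. The CArG box, the motif of serum response factor in muscle genes, was in 1.63% of all promoters. At least 1 promoter held it in 1.81% of all genes and in none of the 31. At so low a share, 31 genes are too few to show a difference. F2r and Adra2a had 68.7% GC each, Avpr1a 54.0% and P2ry14 49.3%, beside a median of 52.7% over all promoters. These matches describe letters in a window and not sites that are used.

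F2r (ENSMUSG00000048376, chr13:95601804-95618459, minus strand, mm10) encodes the main thrombin receptor, which couples to Gq and to other G proteins. A transcript gives about 1 read in 3′ libraries whatever its length, so counts were ordered across genes without division by length, and F2r was the most abundant of the 41 genes in both groups. Its normalized counts were 2053, 1864 and 1219 in Col6a1+ CAFs and 517, 568 and 313 in Col6a1− CAFs. The lowest Col6a1+ library thus lay above the highest Col6a1− library. The mean was 1712 ± 437 against 466 ± 135 (SD, n = 3 each), and the log2 difference was 1.89 (SE 0.33, adjusted p = 0.0105). With the replicate block the adjusted p was 0.0612, and over all alternatives it ran from 0.00266 to 0.136.

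Adra2a (ENSMUSG00000033717, chr19:54045182-54048982, plus strand) encodes a receptor for noradrenaline that couples to Gi. It had 705, 267 and 204 normalized counts in Col6a1+ CAFs and 75, 38 and 34 in Col6a1− CAFs. The groups did not overlap, although replicate 1 of the Col6a1+ CAFs was well above its 2 fellow libraries. The means were 392 ± 273 and 49.0 ± 22.6 (SD, n = 3 each), and the log2 fold change was 2.85 (SE 0.51, adjusted p = 0.0122). The adjusted p was 0.0612 with the block and between 0.00242 and 0.175 over the alternatives.

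Among the other adrenergic receptors, Adra1b, which couples to Gq and mediates constriction by noradrenaline, had 89, 24 and 154 normalized counts in Col6a1+ CAFs and 10, 8 and 5 in Col6a1− CAFs. Its groups did not overlap, with a log2 fold change of 3.07 (SE 0.78), but its adjusted p of 0.0521 missed the threshold. Over the alternatives it ran from 0.0367 to 0.261, and it was under 0.05 in 5 of them, with library size alone, with quantile normalization, with the filter on a mean of 10, with and without the block, and without replicate 2 of the Col6a1+ CAFs. With the block over all genes tested the adjusted p of Adra1b was 0.157. Of the 8 listed adrenergic receptors 7 were detected, all 7 with a log2 fold change above 0 (median 2.04), and 1 was called. Of these, Adra1a had a value below 0 without replicate 2 of the Col6a1+ CAFs and without replicate 1 of the Col6a1− CAFs, and Adra2b without replicate 3 of the Col6a1+ CAFs. Adra1d, another Gq-coupled receptor, was at 0 in all Col6a1− libraries and had 0, 15 and 4 in Col6a1+ CAFs, so the groups overlapped at 0 (adjusted p = 0.314). Adrb1, which couples to Gs, had 3, 12 and 11 against 0, 8 and 0. Adra1a, Adra2b and Adrb3 stayed at or below 8 in every library, and such low values do not order the groups.

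Avpr1a (ENSMUSG00000020123, chr10:122448499-122453453, plus strand) encodes the vasopressin receptor of vascular muscle, which couples to Gq. It had 140, 191 and 133 normalized counts in Col6a1+ CAFs and 46, 12 and 10 in Col6a1− CAFs. No Col6a1− library came near the Col6a1+ range. The mean was 155 ± 31.7 against 22.7 ± 20.2 (SD, n = 3 each), with a log2 fold change of 3.03 (SE 0.60, adjusted p = 0.0177), and with the block the adjusted p was 0.109 (0.00720 to 0.175 over the alternatives). Oxtr, the receptor of the related hormone oxytocin, had at most 2 counts in any library.

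The 3 adenosine receptors had different patterns. Adora2a (ENSMUSG00000020178, chr10:75316943-75334788, plus strand), which couples to Gs and relaxes vessels, had 252, 92 and 132 normalized counts in Col6a1+ CAFs and 5, 18 and 14 in Col6a1− CAFs. The groups were far apart, at 159 ± 83.3 and 12.3 ± 6.66 (SD, n = 3 each). The log2 fold change was 3.61 (SE 0.62, adjusted p = 0.00949), the lowest adjusted p among the 37 genes, and with the block the adjusted p was 0.112 (0.00490 to 0.122 over the alternatives). Adora1, which couples to Gi, had 0, 1 and 7 against 7, 19 and 9, with a log2 fold change of -2.21 (SE 1.08, adjusted p = 0.354). The ratio of Adora1 to Adora2a counts, formed after the values were seen and not tested, was between 0 and 0.0530 in Col6a1+ CAFs and between 0.643 and 1.40 in Col6a1− CAFs. Adora2b, also Gs-coupled, had 0, 9 and 9 against 5, 1 and 0.

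Of the 3 nucleotide receptors 1 was called. P2ry14 (ENSMUSG00000036381, chr3:59113855-59153618, minus strand), a Gi-coupled receptor for UDP-glucose, had 169, 144 and 112 normalized counts in Col6a1+ CAFs and 45, 23 and 18 in Col6a1− CAFs. The groups did not overlap, at 142 ± 28.6 and 28.7 ± 14.4 (SD, n = 3 each). The log2 fold change was 2.35 (SE 0.48, adjusted p = 0.0204), and 0.0737 with the block (0.00794 to 0.133 over the alternatives). Med12l, which overlaps P2ry14 on the other strand, had at most 2 counts in any library.

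P2ry6, the Gq-coupled receptor for UDP, was instead low in Col6a1+ CAFs, with 0, 5 and 8 normalized counts against 16, 37 and 38. Its groups did not overlap, and its log2 fold change was -2.96 (SE 1.04, adjusted p = 0.165). P2rx1, an ion channel opened by ATP, had 38, 7 and 15 in Col6a1+ CAFs and 7, 0 and 1 in Col6a1− CAFs, with the groups touching at 7 (log2 fold change 2.76, SE 1.12, adjusted p = 0.244). Neither passed the test.

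**Figure D2:**
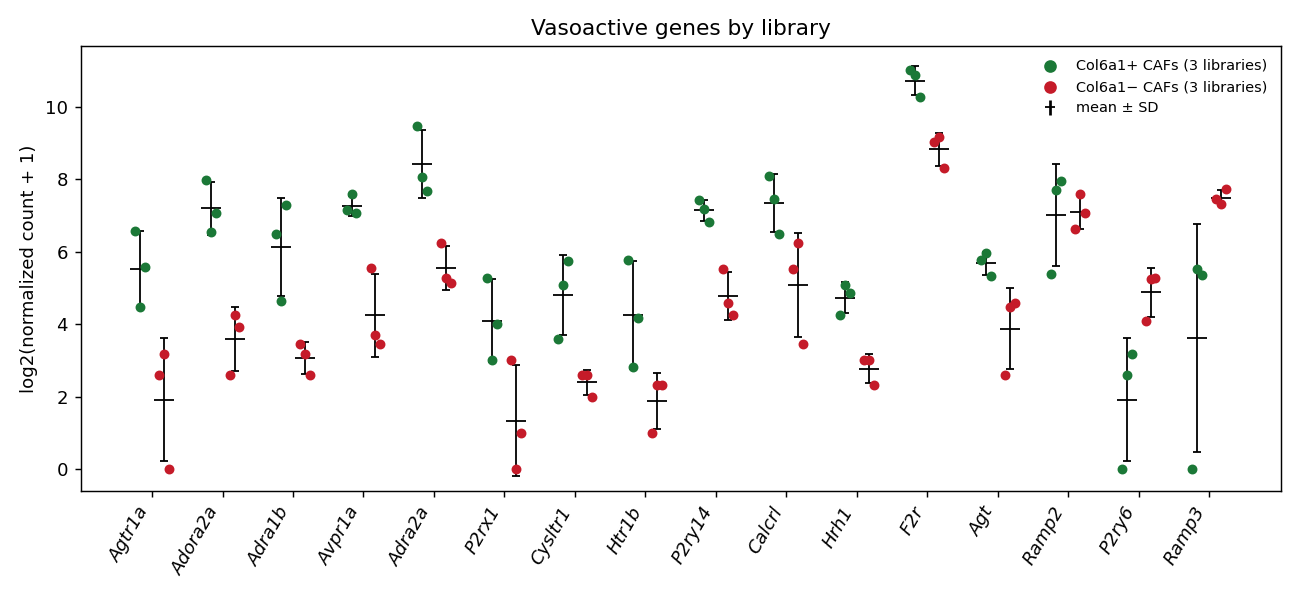
Log2 of the normalized count plus 1 (y axis) of the 16 genes given in full, in the 3 Col6a1+ (green) and 3 Col6a1− (red) CAF libraries, with mean and SD. F2r lay highest in both groups, and Ramp3 and P2ry6 at the right lay lower in all 3 Col6a1+ libraries than in any Col6a1− library.

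The receptors for calcitonin gene-related peptide (CGRP) and adrenomedullin, both of which dilate vessels, are built from the receptor Calcrl and 1 of 3 partner proteins, Ramp1 to Ramp3. Calcrl with Ramp1 binds CGRP, and Calcrl with Ramp2 or Ramp3 binds adrenomedullin. None of these 4 genes was called over all genes tested. Calcrl (chr2:84330626-84425411, minus strand) had 272, 173 and 89 normalized counts in Col6a1+ CAFs and 45, 74 and 10 in Col6a1− CAFs, without overlap. Its log2 fold change was 2.27 (SE 0.70, adjusted p = 0.106), and its adjusted p was 0.117 with the block. With the block and the filter on a mean of 10, chosen after the data were seen, it was 0.0181 (0.0181 to 0.585 over the alternatives).

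Ramp3 (chr11:6658521-6677475, plus strand) had its higher values in Col6a1− CAFs, with 0, 45 and 40 normalized counts in Col6a1+ CAFs and 173, 157 and 209 in Col6a1− CAFs. It was the second most abundant of the 41 genes in Col6a1− CAFs, at 180 ± 26.6 (SD, n = 3). The log2 fold change of -3.86 (SE 1.21, adjusted p = 0.112) rested in part on the 0 of replicate 1 of the Col6a1+ CAFs. Without that library the difference was smaller, at -2.05 (SE 0.27), and its adjusted p was 0.0256. It was also under 0.05 with limma-voom (0.0349) and with the block and the filter on a mean of 10 (0.0434). With the block over all genes tested it was 0.234, and over all alternatives it ran from 0.0256 to 0.702. A pseudogene, Gm11978, overlaps Ramp3 on the other strand and had 8, 10 and 8 against 280, 108 and 311 (log2 fold change -4.46, SE 0.54, adjusted p = 0.00191). Whether the counting used strand is not given in the sources used here, so reads of these 2 genes could not be told apart.

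Ramp2 showed no difference that could be told from the spread. It had 41, 208 and 245 normalized counts in Col6a1+ CAFs and 98, 190 and 133 in Col6a1− CAFs. The log2 fold change was -0.08 (SE 0.62, adjusted p = 0.962), with a 95% interval from -1.45 to 1.30. Its sign turned without replicate 1 of the Col6a1+ CAFs (0.73) and without replicate 2 of the Col6a1− CAFs (0.17). Ramp1 had 15, 53 and 55 against 13, 27 and 13 (log2 fold change 1.05, SE 0.71, adjusted p = 0.532). Vps25 overlaps Ramp2 on the same strand and had 19, 111 and 198 against 83, 117 and 112, so how reads of the overlap were assigned bears on Ramp2 and on its ratios. The ratio of Ramp3 to Ramp2, formed after the values were seen and not tested, was 0, 0.216 and 0.163 in Col6a1+ CAFs and 1.76, 0.826 and 1.57 in Col6a1− CAFs. Ramp1 relative to Ramp2 lay between 0.225 and 0.366 in Col6a1+ CAFs and between 0.0977 and 0.142 in Col6a1− CAFs.

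**Figure D3:**
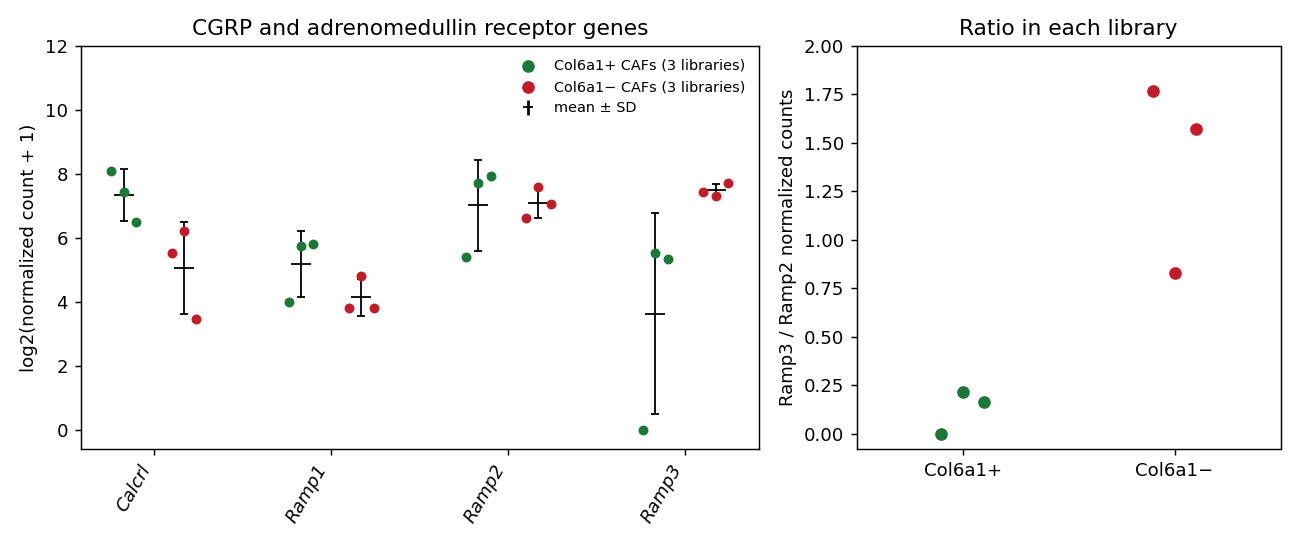
Left, log2 of the normalized count plus 1 (y axis) of Calcrl and its 3 partners in each library, with mean and SD. Right, the Ramp3 to Ramp2 ratio of normalized counts in each library, at or below 0.216 in Col6a1+ CAFs and at or above 0.826 in Col6a1− CAFs.

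The renin-angiotensin genes included the peptide precursor angiotensinogen (Agt), the converting enzyme (Ace) and the receptors. Agtr1a, the main angiotensin II receptor of mouse vessels, which couples to Gq, had 93, 21 and 47 normalized counts in Col6a1+ CAFs and 5, 8 and 0 in Col6a1− CAFs. Its groups were clearly apart, but the spread was wide and the log2 fold change of 3.61 (SE 1.04) had an adjusted p of 0.0832. It was 0.0494 with limma-voom, the lowest of the alternatives, and 0.356 at most. Agt had 53, 61 and 39 against 5, 21 and 23, also without overlap (log2 fold change 1.80, SE 0.69, adjusted p = 0.212). Ace had 27, 31 and 16 against 59, 31 and 24 (log2 fold change -0.55, SE 0.61, adjusted p = 0.642). Agtr1b had 1 count in 1 library, so the angiotensin II receptor transcripts detected were nearly all from Agtr1a.

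None of the receptors for leukotrienes, histamine, serotonin and thromboxane was called. Cysltr1, the Gq-coupled receptor for cysteinyl leukotrienes, had 11, 33 and 52 normalized counts in Col6a1+ CAFs and 5, 5 and 3 in Col6a1− CAFs, without overlap (log2 fold change 2.41, SE 0.88, adjusted p = 0.184). Hrh1, through which histamine acts on Gq, had 18, 33 and 28 against 7, 7 and 4, also without overlap (log2 fold change 1.96, SE 0.78, adjusted p = 0.231). Neither passed the test, nor did Htr1b, a Gi-coupled serotonin receptor that constricts vessels, which had 54, 6 and 17 against 1, 4 and 4 (log2 fold change 2.37, SE 1.05, adjusted p = 0.300). Hrh2, Htr2b and the thromboxane receptor Tbxa2r had at most 11 counts in any library. The 7 counts of Htr2b in 1 Col6a1− library lie within Psmd1, a proteasome gene on the other strand with 163 to 903 counts.

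The bradykinin receptors, both Gq-coupled, had log2 fold changes below 0. Bdkrb1, which inflammation induces, had 75, 89 and 74 normalized counts in the Col6a1− libraries, the fourth highest mean there. In Col6a1+ CAFs it had 3, 115 and 49, a range that took in all the Col6a1− values (log2 fold change -1.49, SE 1.01, adjusted p = 0.528). Bdkrb2 was above 0 in 1 library of each group, with 5 and 13. The muscarinic receptor Chrm3, through which acetylcholine acts on Gq, had 25, 6 and 0 against 14, 15 and 19 (log2 fold change -1.57, SE 1.19), and Chrm2 had 4 counts in 1 Col6a1− library. Tacr1, the receptor of substance P, had 0, 18 and 20 against 4, 3 and 6. Vipr2, a Gs-coupled receptor for vasoactive intestinal peptide, had 0, 19 and 4 against 3, 10 and 3, and Aplnr, the apelin receptor, 0, 6 and 15 against 0, 1 and 0.

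By G protein, 2 of the 17 tested Gq-coupled receptors, 2 of the 7 Gi-coupled and 1 of the 7 Gs-coupled were called higher, and none of the 6 genes that are not such receptors, beside 2.66% of all genes. A log2 fold change above 0 was seen in 11 of the Gq-coupled, 5 of the Gi-coupled and 5 of the Gs-coupled receptors, and in 10884 of the 26402 genes. These shares were not tested against each other. The receptors that contract and those that relax vessels were thus both among the called genes.

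The mural markers moved with the higher receptors in these libraries, and their part in the differences was not tested. Rgs5, a pericyte gene, had 29648 to 42173 normalized counts in Col6a1+ CAFs and 297 to 700 in Col6a1− CAFs. The summed pan-fibroblast markers ran from 41971 to 46808 in Col6a1+ CAFs and from 8708 to 15920 in Col6a1− CAFs, with 5 of 8 called higher. The neuronal markers summed to 195 to 370 against 59 to 113, with Tubb3 called higher, and those of interstitial cells of Cajal to 321 to 614 against 91 to 174, with Ano1 called higher but Kit at 0, 0 and 5 against 15, 12 and 14. The parts of these cells were not tested either. The 12 endothelial markers summed to 1243 to 1657 in Col6a1+ CAFs against 448 to 867, with Esam and Tie1 called higher. Without Esam the sums were 371, 272 and 532 against 394, 774 and 631, and 10 of the 12 had a log2 fold change below 0. Of the list, Pecam1 (0 to 27 against 13 to 64) and Cdh5 (4 to 10 against 24 to 39) were not above the Col6a1− range. Tie1 went the other way, with 220, 56 and 152 against 1, 7 and 21. The sums without Esam were formed after the values were seen, and the part of endothelial cells was not tested. Epithelial markers (8 of 12 called lower) and mast cell markers (0 to 10 counts in sum against 215 to 530, with Mcpt1 and Mcpt2 called lower) were higher in the Col6a1− CAFs, where Ramp3 and P2ry6 had their higher values, and their part in those differences was not tested. Immune markers were low in both groups, at 64 to 134 against 195 to 411 in sum.

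Of 43 precursors, synthetic enzymes and degrading enzymes of these mediators, 37 rows were tested, 1 was called higher and 2 lower, and the median log2 fold change was -0.37. The share called higher was close to that of all genes (2.66% higher, 1.96% lower, median -0.27). At an unadjusted p under 0.05, 3 of the 37 were higher and 12 lower, against 1751 and 2483 of the 26402 genes. Of the 37, 3 lay above and 10 below all libraries of the other group, where 7.91% and 11.6% of all genes did. Enpep, the aminopeptidase that shortens angiotensin II, had 139, 45 and 95 normalized counts in Col6a1+ CAFs and 1, 2 and 0 in Col6a1− CAFs. The fitted log2 fold change of 5.55 (SE 0.87, adjusted p = 0.00618) depends on the pseudocount at such low values, and the adjusted p was 0.0725 with the block. Ddc, which makes serotonin and dopamine from their amino acid precursors, had 48, 66 and 31 against 244, 267 and 151 and had a log2 fold change of -2.19 (SE 0.42, adjusted p = 0.0164, 0.0629 with the block). Nt5e, which makes adenosine outside the cell, had 74, 55 and 39 against 150, 173 and 161 (log2 fold change -1.55, SE 0.39, adjusted p = 0.0499, 0.121 with the block). With library size alone 5 of this list were called lower and with limma-voom 6, against 628 and 1006 of the 26402 genes. The all-gene counts of the fits with 1 library left out are given above. Leaving out replicate 1 or 2 of the Col6a1+ CAFs left 1 higher and 1 lower, leaving out replicate 2 of the Col6a1− CAFs left 1 higher and 0 lower, and leaving out any other library left 0. Nt5e and the adenosine receptor Adora2a thus differed in opposite directions between the groups.

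Of 34 related receptors outside the 41, 19 were tested. None was called higher and 1 was called lower, where 2.66% and 1.96% of all genes were. The median log2 fold change was -0.43 beside -0.27 for all genes. At an unadjusted p under 0.05, 2 of the 19 were higher and 4 lower, against 1751 and 2483 of the 26402 genes. By limma-voom none was higher and 2 were lower, against 804 and 1006 of the 26402. The 1 lower receptor was Hrh3, a Gi-coupled histamine receptor, which had 0, 0 and 1 normalized counts in Col6a1+ CAFs and 121, 51 and 43 in Col6a1− CAFs (log2 fold change -5.70, SE 0.92, adjusted p = 0.00679, 0.0717 with the block). The adjusted p of Hrh3 was between 0.0234 and 0.0361 without any 1 Col6a1+ library and between 0.0679 and 0.0879 without any 1 Col6a1− library. Hrh1, described above, had its higher values in Col6a1+ CAFs but did not pass the test.

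Downstream of the receptors, 11 of 52 tested G proteins, effectors and desensitising kinases were called higher in Col6a1+ CAFs and none lower, where 2.66% and 1.96% of all genes were, with a median log2 fold change of 0.59 against -0.27. At an unadjusted p under 0.05, 18 were higher and 2 lower, against 1751 and 2483 of the 26402 genes. By limma-voom 9 were higher and 1 lower, against 804 and 1006 of the 26402. Prkar2b, a regulatory subunit of protein kinase A, had 506, 276 and 298 normalized counts against 30, 29 and 19 (log2 fold change 3.71, SE 0.41, adjusted p = 0.00138). Adcy3, an adenylyl cyclase that makes cyclic AMP, had 85, 264 and 265 against 5, 17 and 26 (3.67, SE 0.68, adjusted p = 0.0130), and Ppp1r14a, an inhibitor of myosin phosphatase in smooth muscle, had 197, 224 and 226 against 20, 29 and 13 (3.39, SE 0.44, adjusted p = 0.00232). All 3 had an adjusted p of 0.0612 with the block. The other 8 were the kinase subunits Prkar1a and Prkacb, the phosphodiesterases Pde3a and Pde4a, Gnai2, Grk5, Prkce and Arhgef25. Between 8 of the 52 (without replicate 1 of the Col6a1+ CAFs) and 0 (without replicate 1 of the Col6a1− CAFs) were called higher with 1 library left out. The counts were 4, 3, 4 and 2 without Col6a1+ replicates 2 and 3 and Col6a1− replicates 2 and 3. Over all genes the same fits, in the same order, called 453, 11, 292, 179, 180 and 102 higher, of 25299 to 26150 tested. Every mural marker was higher in the same libraries, and the part of mural cells in this list's values was not tested.

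**Figure D4:**
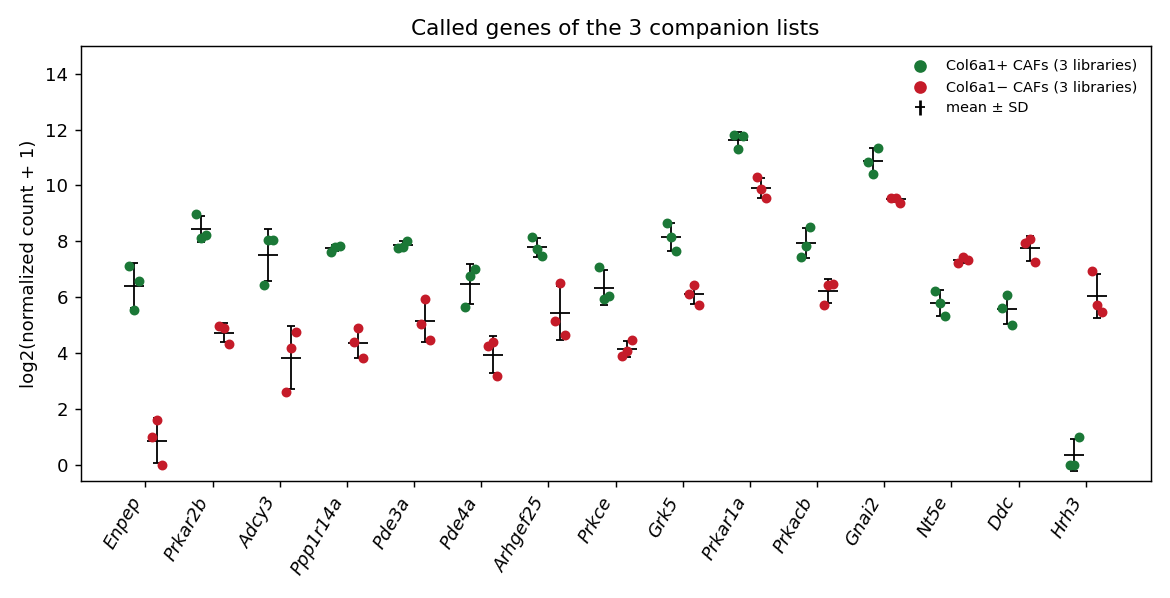
Log2 of the normalized count plus 1 (y axis) of the 15 called genes of the 3 companion lists in each library, with mean and SD. Enpep and the 11 signalling genes lay higher in all 3 Col6a1+ libraries, and Nt5e, Ddc and Hrh3 lower.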

How the data were processed

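The 6 libraries were grouped by their labels. Per the labels and the study's methods, the authors mapped reads to mm10 with TopHat2 and Bowtie2, counted them per gene and normalized with DESeq. They deposited the log2 of the normalized count plus 1, which gave whole normalized counts here. From the step between low values, 2571562 to 3876899 reads per library were estimated, so 1 read was worth 0.84 to 1.33 normalized counts; floors cover counting error only. A further 6 per-sample columns, and the authors' p-values and fold changes, were not used.

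The log2 values were fitted by group with limma 3.58.1 in R 4.3.3 (lmFit, eBayes with trend, 4 residual and 6.48 prior degrees of freedom) over 26402 genes (a total of 1 normalized count or more), with Benjamini-Hochberg adjustment over all of them. p-values measure the spread between these pooled samples. Genes with an adjusted or unadjusted p under 0.05, without overlap, or among the 5 highest means are given in full, the others by their values or range. Of the companion lists, up to 3 called genes per direction are given with values. The 41 genes and all lists were chosen with earlier results of these data known, and the study itself describes vasoconstriction genes in these libraries, so these genes are not independent of it. The test was tried on simulated data.

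Deviations from the group means over 13515 genes with a mean of at least 10 had correlations of 0.245, 0.126 and 0.144 for equal replicate numbers and of -0.245 to 0.150 for unequal ones. The highest unequal value, 0.150, lay above 0.126 and 0.144, so these correlations do not settle whether the numbers mark pairs. The labels give only replicate numbers. The study describes a total of 3 samples, each from pooled tumors, and sorted both cell groups from adenomas. The 6 libraries may therefore be pairs from the same pools, but which libraries share a pool is not stated. If equal numbers do mark pairs, only the fits with the block take the pairing into account. The main fit used the group alone, as planned, and the fit with the replicate number as a block is given beside it. Python 3.11.15, pandas 2.3.3 and Matplotlib 3.10.9 made the summaries and plots. Proteins of these genes were not used here.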

Additional observations from a re-analysis of the deposited data

How the results depend on the processing

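Of 246 alternative values of the 16 genes given in full, 189 kept their direction and side of the threshold, 35 lost the call, 20 gained it and 2 reversed. All 35 losses fell on the 5 called genes, the only ones that could lose a call, so the share of 246 understates how often their calls failed. Of the 20 gains, 10 came from dropping the adjustment, a looser threshold on the same fit. Both reversals were for Ramp2 (0.73 without replicate 1 of the Col6a1+ CAFs, 0.17 without replicate 2 of the Col6a1− CAFs, and from -0.54 to 0.73 over the 6 fits with 1 library left out). Against 5 genes higher, 0 lower and a median of 1.02, the replicate block and no filter on low values each left 0 higher. Over all genes the block called 0 of 26402, and the fit without the filter called 21 higher and 7 lower of 49548. The 0 in these 2 fits is thus close to the share of all genes. The causes were not tested. Genes with a mean of at least 10 gave a median of 2.11, beside -0.15 for all genes under that filter. Those with at least 10 in every library gave 2.08, beside -0.027 for all genes. The replicate block over the former, added after the data were seen, gave 1 lower and a median of 2.11. Each was over fewer genes (20, 8 and 20). The mean was taken over both groups, so a gene could pass through its higher group alone. These filters changed which genes were counted and not their fold changes, so the rise from 1.02 does not show a larger difference. limma-voom called 6 higher and 1 lower, against 804 and 1006 of the 26402 genes. The unadjusted criterion, with an absolute log2 fold change over 1, called 13 higher and 2 lower, against 1607 and 2273 of the 26402. With 1 library left out, 0 to 2 were higher and 0 to 1 lower, with medians of 0.50 to 1.64. Of all genes, 11 to 453 were higher and 1 to 442 lower in those fits. Quantile normalization moved the median of all genes from -0.27 to -0.11 and turned the sign of Vipr2. Of the 37 genes, 3 had at most 3 counts in every library, so no difference was detectable there. Low levels and 3 libraries per group limit all values.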
